A study of Homo sapiens with 18 samples.

Results

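The endoplasmic reticulum (ER) folds and quality-controls secreted and membrane proteins, and 34 genes of that machinery are described here out of the 22034 genes in the count table. They were listed by name for their known roles, with earlier results of these data known, and the rule itself uses no measured value: chaperones and disulfide enzymes of the ER lumen, factors of ER-associated degradation, a subunit each of the translocon and of the COPII coat, and the sensors of the unfolded protein response. All 34 were found in the table by Ensembl identifier, and all 34 passed the filter on low counts that left 14164 genes for testing. Across the 18 samples their counts ran from 7 (DERL3) to 68846 (HSP90B1).

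RNA-seq was performed on VCaP, an ERG-positive human prostate cancer line with the TMPRSS2:ERG fusion, from ribosomal RNA-depleted total RNA. VCaP-shERG cells, which express a short hairpin RNA against ERG upon doxycycline (Dox), received DMSO or 1 µg/mL Dox, and the labels give no time for Dox. Parental VCaP cells received DMSO or 50 µM PBITE-1, a small molecule that binds the PNT domain of ERG, for 4, 8, or 12 h. Each of the 6 groups held 3 samples, the 3 times of PBITE-1 were compared with the same 3 DMSO samples, and the labels give no time for DMSO. Samples with Dox in cells that lack the hairpin were not analysed here, so Dox and the hairpin cannot be told apart, and neither can the line and the treatment when the experiments are set side by side. The methods describe the PBITE-1 samples as biological replicates without saying whether they were separate cultures, so p-values measure the spread between these samples.

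Client proteins enter the ER through the Sec61 translocon and fold with the help of BiP (HSPA5), GRP94 (HSP90B1), the lectins calreticulin and calnexin, and the protein disulfide isomerases. Proteins that fail to fold are passed back to the cytosol and degraded, through the membrane complex of the ligase HRD1 (SYVN1) and its partner SEL1L. When unfolded proteins build up, the sensors IRE1 (ERN1), PERK (EIF2AK3), and ATF6 signal to the nucleus: ATF6 and the spliced form of XBP1 are known to activate chaperone and degradation genes, and PERK to raise the translation of ATF4. Prostate luminal cells are secretory, and the androgen receptor is known to act on parts of this system. XBP1 splicing cannot be read from counts per gene.

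The ER stress response element (ERSE), the site known for ATF6 with NF-Y, reads CCAAT, then 9 bases, then CCACG. A shorter form, ERSE-II, reads ATTGG, 1 base, CCACG. Both were searched on both strands in RefSeq promoter windows (GRCh38.p14, 250 bases before to 50 after the gene start), which covered 30 of the 34 genes. DERL1, DERL3, PDIA3, and SEC24D had no window. ERSE was in 22 of 27305 windows of all genes (0.081%), and 6 of these windows belonged to the members CALR, CANX, CRELD2, ERO1B, HSP90B1, and HSPA5. ERSE-II was in 15 windows (0.055%), of which 3 belonged to HERPUD1, HYOU1, and SDF2L1. The stretches below are shown because genes with the same element went different ways in these samples. Capitals mark the match, and each stretch is written 5′ to 3′ on the strand of its gene. Where the element lies on the other strand, ERSE reads CGTGG, 9 bases, ATTGG, and ERSE-II reads CGTGG, 1 base, CCAAT.
HSPA5 (ERSE, chr9:125241386-125241414, minus strand): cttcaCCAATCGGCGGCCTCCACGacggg
HSP90B1 (ERSE, chr12:103930211-103930239, plus strand): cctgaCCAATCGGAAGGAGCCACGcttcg
CANX (ERSE, chr5:179698773-179698801, plus strand): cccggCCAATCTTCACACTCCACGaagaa
CALR (ERSE on the other strand, chr19:12938379-12938407, plus strand): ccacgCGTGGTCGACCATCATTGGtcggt
HERPUD1 (ERSE-II, chr16:56932020-56932040, plus strand): cgccgATTGGGCCACGttggg
HYOU1 (ERSE-II on the other strand, chr11:119057375-119057395, minus strand): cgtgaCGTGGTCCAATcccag
SDF2L1 (ERSE-II on the other strand, chr22:21642109-21642129, plus strand): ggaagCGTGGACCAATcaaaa

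The match in HSPA5 began 66 bases before the gene start, and those in HSP90B1 began 194 and 89 bases before it. HYOU1 held ERSE-II 2 times, and the first match overlapped a UPRE core (TGACGTGG), a sequence known for spliced XBP1, which was in 217 windows (0.795%) and in no other member. The C/EBP-ATF composite element (TGATG, 1 base, AA, then T or C), known for ATF4 and CHOP, was in 491 windows (1.80%), and HERPUD1 was the member among them. These matches are descriptions of letters in a window and do not show binding.

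Totals ran from 11308600 to 17483423 counts per sample, and values below are counts per 1000000 (CPM), scaled by TMM within each experiment. In the knockdown, ERG stood at 461, 449, and 433 CPM with DMSO and at 166, 167, and 159 CPM with Dox, a fall of 2.72-fold (log2 fold change -1.445, SE 0.035, adjusted p = 3.29e-22, limma-voom). ERG also fell after PBITE-1, from 280.0, 289.5, and 298 CPM with DMSO to 102, 88.5, and 101 CPM at 12 h (log2 fold change -1.58, SE 0.047, adjusted p = 7.45e-28). The 8 luminal markers were all measured, and their summed counts fell from between 124002 and 148907 to between 77511 and 85917 with Dox, and from between 112090 and 128238 to between 47314 and 51938 at 12 h of PBITE-1. Summed counts of 4 fibroblast markers rose from between 20 and 31 to between 97 and 114 with Dox, and from between 31 and 45 with DMSO to between 81 and 126 at 8 h and between 79 and 142 at 12 h of PBITE-1, with COL1A2 and DCN at no more than 2 counts. Markers of leukocytes summed to no more than 25 counts and those of endothelium to no more than 28. The mitochondrial share of counts was 9.67% to 10.1% with DMSO and 8.06% to 8.43% at 12 h. The part of these shifts in the results was not tested, and in bulk RNA fewer cells of a type and less RNA per cell cannot be told apart.

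In DMSO-treated parental cells a few lumenal chaperones held most of the members' summed level. Per kilobase of exons, HSP90B1 was highest at 746 CPM, followed by CALR at 609, CANX at 524, and HSPA5 at 476. These 4 genes held 66.1% to 67.2% of the members' summed CPM with DMSO and 56.6% to 57.5% at 12 h of PBITE-1. DNAJB9 at 3.47, WFS1 at 3.27, ERN1 at 2.14, and DERL3 at 0.757 CPM per kilobase were the lowest. At 12 h HSP90B1 was still first, at 560 CPM per kilobase, while HERPUD1 had moved from place 21 to place 8 and DNAJB9 from place 31 to place 12.

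**Figure D1:**
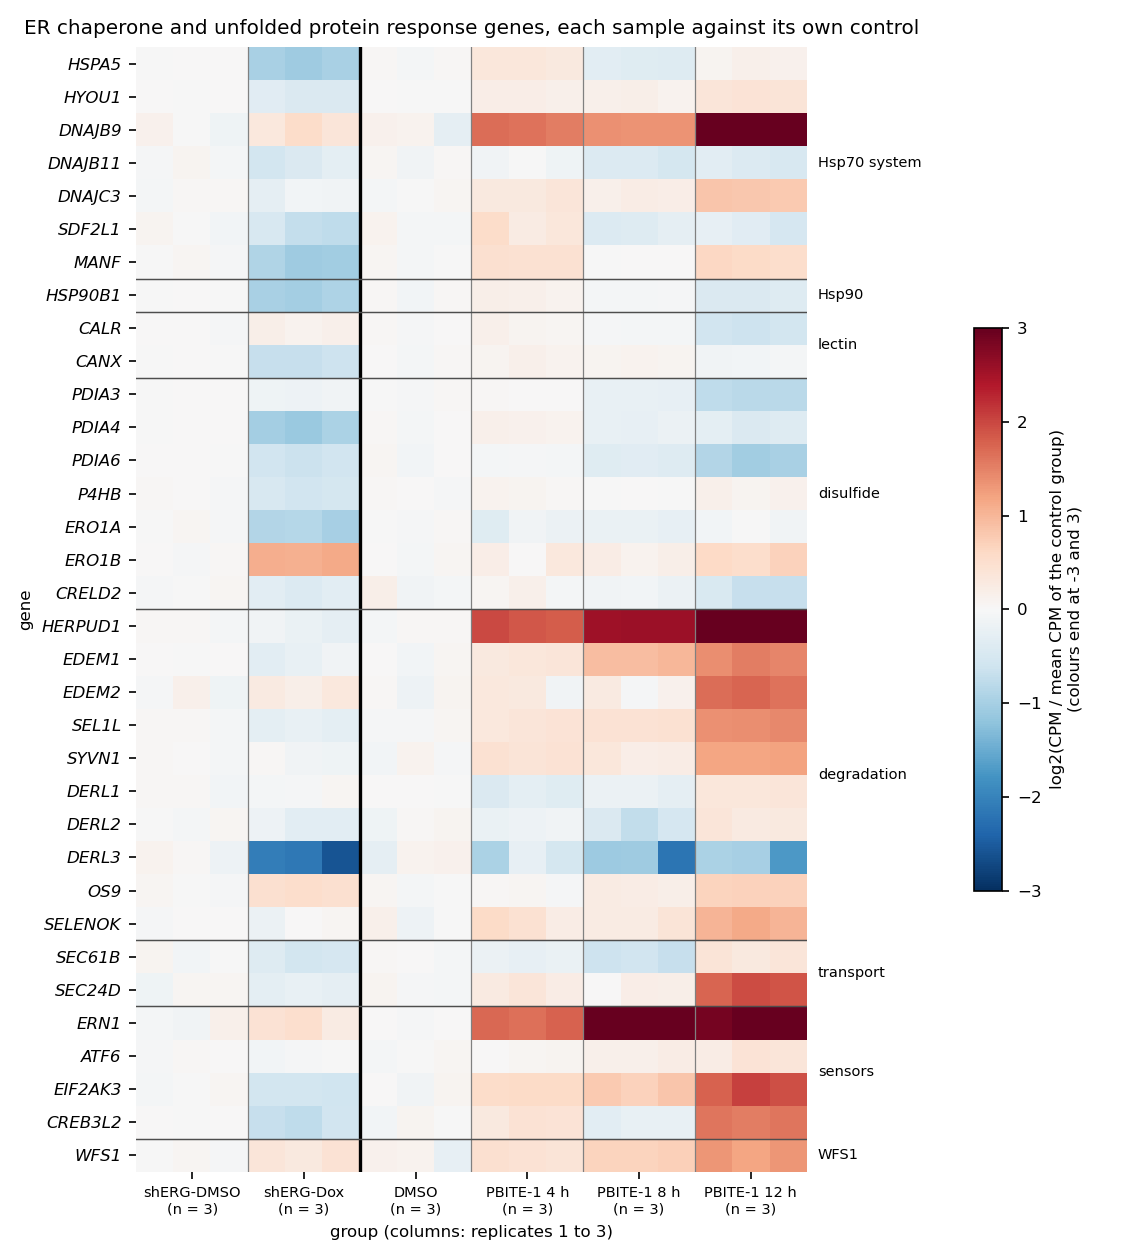
Heat map of the 34 genes (rows, by role) in the 18 samples (columns, 3 per group). Colour gives log2 of a sample's CPM over the mean CPM of its own control group (shERG-DMSO on the left of the thick line, DMSO on the right), ending at -3 and 3. HERPUD1, DNAJB9, and ERN1 stand out after PBITE-1, and most chaperone rows at the top are blue with Dox.

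The first comparison asks what loss of ERG does to these genes. After Dox 23 of the 34 were lower and 7 were higher, at an adjusted p below 0.05 over all tested genes. Among all 14164 genes 35.3% were called lower and 35.1% higher, so 67.6% of the members against 35.3% of all genes were lower. Past 2-fold, 3 members were lower (DERL3, PDIA4, and HSPA5) where 7.19% of all genes were, and 1 was higher (ERO1B) where 12.0% of all genes were. The members' median log2 fold change was -0.27, beside 0.02 over all genes. This count depends on scaling. With library size only, which moved the median of all genes from 0.018 to 0.279, 15 members were lower and 12 higher, and their median was -0.004. With upper-quartile scaling 17 were lower and 9 higher. With library size only CRELD2, DERL2, DNAJC3, EDEM1, HERPUD1, SEC24D, and SEL1L were no longer called, PDIA3 was called higher, and ATF6, DERL1, SELENOK, and SYVN1 became higher. The other 15 lower calls and all 7 higher calls held with TMM, RLE, upper-quartile scaling, and library size only.

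The lumenal chaperones fell broadly, and the calls on the genes named next held under these 4 scalings. HSPA5 (chr9:125234853-125241330), which encodes BiP, the ER Hsp70, stood at 2501, 2564, and 2550.1 CPM with DMSO and at 1286, 1211, and 1285 CPM with Dox. The groups lay far apart, with a log2 fold change of -1.01 (SE 0.021, adjusted p = 1.09e-23). GRP94 (HSP90B1) went from 4531, 4656, and 4572 to 2322, 2252, and 2425 CPM, a log2 fold change of -0.98 (SE 0.019, adjusted p = 3.25e-24). PDIA4, a protein disulfide isomerase, went from 703, 714, and 720.4 to 354, 328, and 369 CPM, a log2 fold change of -1.03 (SE 0.032, adjusted p = 4.1e-20). In each of the 3 genes every Dox sample lay far below every control sample. MANF, a BiP-binding protein that is also secreted, fell by 0.99 on the log2 scale, and ERO1A, the oxidase that recharges PDI, fell by 0.91. CANX (-0.67), SDF2L1 (-0.64), PDIA6 (-0.59), P4HB (-0.53), DNAJB11 (-0.44), and HYOU1 (-0.40) fell less.

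DERL3, a derlin of the degradation complex, had the steepest log2 fold change with Dox and the fewest counts of all members. It stood at 8.48, 8.11, and 7.11 CPM with DMSO and at 1.89, 1.79, and 1.32 CPM with Dox (log2 fold change -2.23, SE 0.243, adjusted p = 7.1e-09). The groups did not overlap. DERL3 (chr22:23834503-23839128) overlaps SMARCB1 on the opposite strand, and the use of strand in counting is not given in the sources used here, so its reads are uncertain. The same holds for the shared stretches of the other members that overlap a gene of the count table, 12 in all with DERL3: CANX, CRELD2, DERL1, DERL2, DNAJB11, DNAJB9, ERO1B, HSP90B1, PDIA3, PDIA6, and SYVN1.

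A minority rose with Dox. ERO1B, the second ER oxidase, went from 16.5, 15.96, and 16.9 to 35.1, 34.4, and 35.9 CPM (log2 fold change 1.09, SE 0.083, adjusted p = 5.75e-12), and its 3′ end overlaps GPR137B on the opposite strand. Its paralogue ERO1A went the other way, from 105, 110.3, and 103 to 57.5, 58.9, and 53.2 CPM. OS9, a lectin that delivers glycoproteins to HRD1, went from 140.3, 133, and 131 to 188, 194, and 188 CPM (log2 fold change 0.50, SE 0.039). DNAJB9, a J-domain co-chaperone of BiP, went from 19.5, 17.5, and 16.1 to 22.0, 26.1, and 22.6 CPM (log2 fold change 0.42, SE 0.096, adjusted p = 0.000402). CALR rose by 0.14 on the log2 scale while its fellow lectin CANX fell. WFS1 (0.37) and EDEM2 (0.26) were also higher.

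The sensors split after Dox. EIF2AK3, which encodes PERK, went from 50.2, 52.1, and 54.1 to 35.5, 35.8, and 34.7 CPM (log2 fold change -0.56, SE 0.063, adjusted p = 1.33e-08), and CREB3L2, an ATF6-like factor of the ER membrane, fell by 0.67 on the log2 scale. ERN1, which encodes IRE1, went from 19.9, 19.3, and 23.4 to 28.3, 29.5, and 24.9 CPM (log2 fold change 0.41, SE 0.091, adjusted p = 0.000325). ATF6 stood at 79.9, 83.7, and 83.2 CPM with DMSO and at 78.2, 80.6, and 81.9 CPM with Dox, and the groups overlapped (log2 fold change -0.04, 95% interval -0.14 to 0.06, adjusted p = 0.487), although ATF6 was called higher with library size only and with upper-quartile scaling. Summed over the 10 degradation genes, CPM were 776.7 to 818.6 with DMSO and 788 to 792 with Dox, whereas the 7 genes of the Hsp70 system fell from between 3559 and 3632 to between 1972 and 2070.1. These sums depend on scaling too. TMM factors were 0.9099 to 0.9175 with DMSO and 1.092 to 1.097 with Dox, and the sums were not remade with other scalings.

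**Figure D2:**
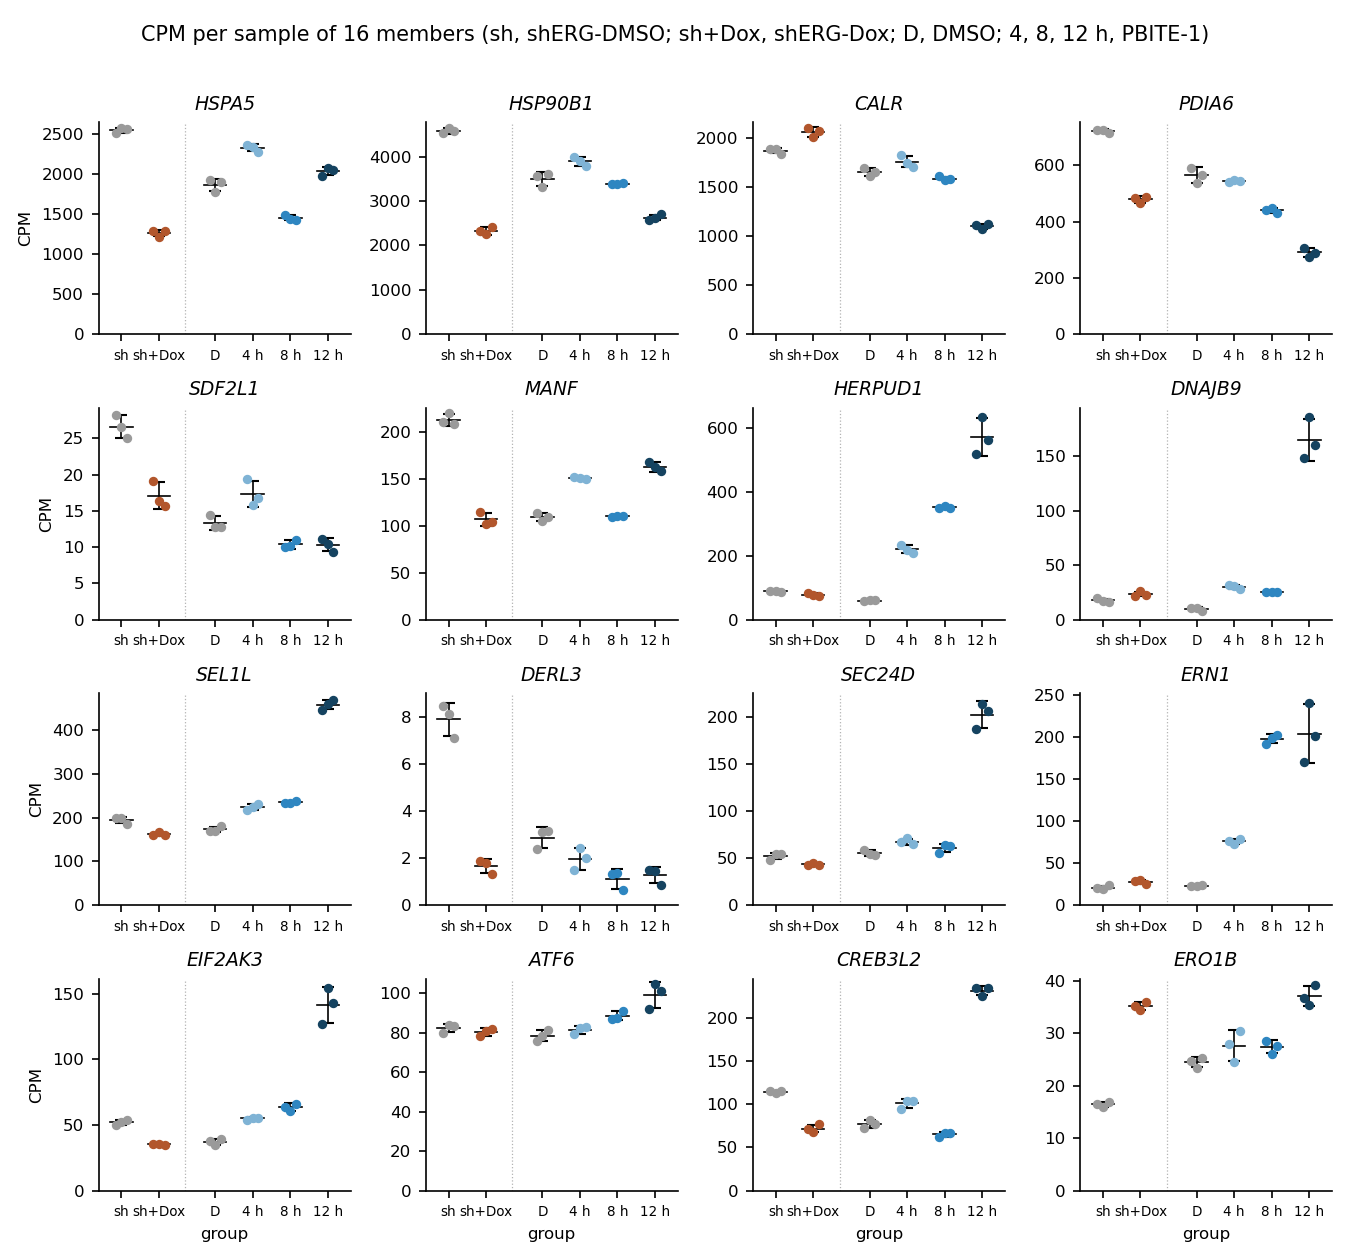
CPM per sample (points) of 16 members in the 6 groups, with the mean (line) and SD (bar) of 3 samples; every vertical axis starts at 0. HSPA5 and MANF are lower at 8 h than at 4 or 12 h, whereas HERPUD1 is higher at each later time, and SEL1L, SEC24D, CREB3L2, and DNAJB9 have their highest samples at 12 h.

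The next comparisons ask how the genes respond to PBITE-1 over time. After 4 h 21 of 34 members were higher and 3 lower (26.4% and 24.7% of all genes), and 3 were past 2-fold, all upwards (7.28% of all genes upwards, 2.99% downwards). The 3 lower members, DERL1, ERO1A, and SEC61B, stayed within 2-fold. ERO1A stood at 95.5, 93.8, and 97.8 CPM with DMSO and at 74.6, 88.4, and 85.2 CPM at 4 h (log2 fold change -0.21, SE 0.054), so that the groups did not overlap. The median of the members was 0.17. Of the 21 higher calls 6 were in the Hsp70 system, 5 in degradation, and 3 among the 4 sensors, and most were small: HSP90B1 (0.15), CANX (0.11), CALR (0.09), and P4HB (0.08) moved by 0.15 or less on the log2 scale, and CALR and P4HB were not called with library size only or with upper-quartile scaling.

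HERPUD1, DNAJB9, and ERN1 were the 3 with a large change at 4 h. HERPUD1 (chr16:56932048-56944863), a membrane protein that organises the HRD1 complex, stood at 57.2, 61.0, and 60.9 CPM with DMSO, at 235, 217, and 209.6 CPM at 4 h, at 350.3, 355, and 351 CPM at 8 h, and at 519, 635, and 563 CPM at 12 h. Each later group lay above the one before it. Its log2 fold change was 1.88 (SE 0.065) at 4 h, 2.56 (SE 0.062) at 8 h, and 3.26 (SE 0.060, adjusted p = 1.5e-34) at 12 h, and the steps from 4 to 8 h (0.68, SE 0.052) and from 8 to 12 h (0.70, SE 0.046) were both called.

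ERN1 (chr17:64039142-64130819) was higher at 4 and 8 h and levelled after that. It stood at 23.3, 22.7, and 23.6 CPM with DMSO, at 76.4, 72.6, and 78.5 CPM at 4 h, at 192, 199, and 203 CPM at 8 h, and at 171, 241, and 201 CPM at 12 h. The 12 h samples spread on both sides of the 8 h samples. The log2 fold change was 3.09 (SE 0.096) at 8 h and 3.13 (SE 0.096, adjusted p = 1.62e-27) at 12 h, and the difference between 12 and 8 h was 0.04 (SE 0.062, adjusted p = 0.633).

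DNAJB9 (chr7:108569568-108574850) came in steps. It stood at 10.8, 10.6, and 8.11 CPM with DMSO, at 31.5, 30.4, and 28.4 CPM at 4 h, at 25.55, 24.99, and 25.02 CPM at 8 h, and at 148, 185, and 160.3 CPM at 12 h. All treated samples lay above DMSO, and the 8 h samples lay below those of 4 and 12 h. At 12 h its log2 fold change of 4.08 (SE 0.113, adjusted p = 6.07e-29) was the highest of the 34, after 1.63 (SE 0.127) at 4 h and 1.38 (SE 0.129) at 8 h. The step from 8 to 12 h was 2.70 (SE 0.082, adjusted p = 1.89e-26). Its first bases overlap THAP5 and PNPLA8 on the opposite strand.

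At 8 h the members were close to all genes in number: 14 were higher and 12 lower (35.9% and 37.0% of all genes), with 3 higher and 1 lower past 2-fold (14.9% and 8.86%). The median was 0.05. The direct test against 4 h called 17 members lower and 7 higher (26.3% and 26.7% of all genes). The 17 were 6 of the 7 genes of the Hsp70 system, HSP90B1, CALR, 4 disulfide enzymes, SEC61B, SEC24D, SYVN1, DERL2, and CREB3L2. The 7 were HERPUD1, EDEM1, DERL1, OS9, ERN1, EIF2AK3, and WFS1.

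BiP itself went up, down, and up again. HSPA5 stood at 1915, 1772, and 1891 CPM with DMSO, rose to 2356, 2334, and 2273 CPM at 4 h, fell to 1482, 1439, and 1422 CPM at 8 h, and stood at 1976, 2069, and 2041 CPM at 12 h. The groups of DMSO, 4, 8, and 12 h did not overlap. Against DMSO the log2 fold change was 0.32 (SE 0.029) at 4 h, -0.36 (SE 0.030) at 8 h, and, at 12 h, 0.13 (SE 0.029, adjusted p = 0.000131), and the steps of -0.68 from 4 to 8 h and 0.49 from 8 to 12 h were both called. SDF2L1, which binds the J-domain protein DNAJB11, stood at 14.4, 12.8, and 12.7 CPM with DMSO, at 19.4, 15.8, and 16.8 CPM at 4 h, at 9.98, 10.1, and 11.03 CPM at 8 h, and at 11.2, 10.5, and 9.34 CPM at 12 h. It was above DMSO at 4 h (log2 fold change 0.38, SE 0.104) and below it later (-0.37, SE 0.116 at 12 h, adjusted p = 0.00454). In all, 10 members (29.4%, beside 5.87% of all genes) were called in both directions over the 3 times, which share the DMSO samples: CALR, CANX, CREB3L2, DERL1, DERL2, HSP90B1, HSPA5, PDIA4, SDF2L1, and SEC61B.

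At 12 h 23 members were higher and 10 lower (39.4% and 39.4% of all genes), and ERO1A was not called. Past 2-fold, 12 were higher where 17.1% of all genes were, and 1 was lower where 15.4% were. The median was 0.37, beside -0.01 over all genes. The samples of the 23 all lay above the DMSO samples and those of the 10 all below, as did the samples of 39.2% and 39.4% of all genes. Against 8 h, 23 members were higher and 7 lower (27.8% and 32.5%). With 8 h lower than 4 h and 12 h higher than 8 h there were 10 members, beside 6.26% of all genes: CREB3L2, DERL2, DNAJB9, DNAJC3, HSPA5, MANF, P4HB, SEC24D, SEC61B, and SYVN1.

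The degradation factors among the members moved upwards at 12 h, with 9 of 10 higher (39.4% of all genes) and a median log2 fold change of 1.13. This did not extend to all degradation factors. Of 13 others outside the members, 8 were higher and 5 lower, with a median of 0.27. After HERPUD1 came EDEM2 (1.69) and EDEM1 (1.48), which trim mannose from misfolded glycoproteins, then SEL1L (1.40), the scaffold of the HRD1 complex, SYVN1 (1.19), the ligase HRD1 itself, and SELENOK (1.07), a selenoprotein that binds derlins. SEL1L stood at 170.2, 171, and 180.4 CPM with DMSO, at 234, 234, and 239 CPM at 8 h, and at 447, 460.0, and 468 CPM at 12 h. The rise of EDEM1 was already 0.95 at 8 h, whereas EDEM2 was not called before 12 h. SYVN1 overlaps FAU on its own strand and MRPL49 on the other, which leaves the assignment of some of its reads open to doubt.

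The derlins differed among themselves. DERL1 stood at 114, 114, and 113 CPM with DMSO, at 84.3, 92.6, and 88.5 CPM at 4 h, at 101, 101, and 95.04 CPM at 8 h, and at 144, 145, and 148 CPM at 12 h. It passed from below to above the control (log2 fold change -0.37, SE 0.049 at 4 h and 0.35, SE 0.044 at 12 h). DERL2 stood at 25.2, 28.5, and 29.3 CPM with DMSO, at 20.4, 16.7, and 19.5 CPM at 8 h, and at 35.7, 33.2, and 34.1 CPM at 12 h, and it too passed from below the control (-0.56, SE 0.088 at 8 h) to above it (0.31, SE 0.076 at 12 h). DERL3 was the degradation gene among the members that was lower at 12 h, at 1.49, 1.44, and 0.874 CPM against 2.37, 3.11, and 3.14 CPM (log2 fold change -1.20, SE 0.305, adjusted p = 0.000564).

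All 4 sensors were higher at 12 h (39.4% of all genes), with a median log2 fold change of 1.75. Of 9 signalling genes outside the members, 4 were higher and 5 lower, with a median of -0.41. EIF2AK3 stood at 37.7, 34.5, and 39.4 CPM with DMSO, at 54.2, 55.7, and 55.4 CPM at 4 h, at 63.8, 60.4, and 66.3 CPM at 8 h, and at 127, 155, and 143 CPM at 12 h, a log2 fold change of 1.93 (SE 0.066, adjusted p = 5.59e-26). CREB3L2 stood at 72.9, 82.4, and 77.01 CPM with DMSO, at 95.1, 104, and 104 CPM at 4 h, at 62.3, 66.7, and 66.5 CPM at 8 h, and at 235, 226, and 235 CPM at 12 h. Its 8 h samples lay below DMSO and its 12 h samples far above (log2 fold change -0.25, SE 0.057 at 8 h and 1.58, SE 0.048 at 12 h). ATF6 moved least, from 75.8, 78.4, and 81.2 CPM with DMSO to 87.1, 87.3, and 91.2 CPM at 8 h and 91.8, 105, and 101 CPM at 12 h (log2 fold change 0.34, SE 0.052, adjusted p = 2.52e-07).

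The 2 transport factors among the members and WFS1 were higher at 12 h as well (39.4% of all genes). This did not extend to all transport factors. Of 12 translocation genes outside the members, 5 were higher and 6 lower, with a median of -0.12. Of 9 COPII genes outside the members, 5 were higher and 2 lower, with a median of 0.38. SEC24D, which packs cargo into COPII vesicles, stood at 59.1, 53.9, and 53.5 CPM with DMSO, at 55.5, 63.8, and 63.1 CPM at 8 h, and at 187, 214, and 207 CPM at 12 h (log2 fold change 1.87, SE 0.058, adjusted p = 1.82e-27). The groups of DMSO and 8 h overlapped and the 12 h group lay apart. SEC61B, a subunit of the translocon, stood at 43.6, 43.1, and 41.2 CPM with DMSO, at 37.6, 36.2, and 37.0 CPM at 4 h, at 27.9, 28.4, and 26.4 CPM at 8 h, and at 55.4, 52.6, and 55.2 CPM at 12 h. It was below DMSO at 4 and 8 h (log2 fold change -0.62, SE 0.069 at 8 h) and above it at 12 h (0.35, SE 0.059). WFS1, a membrane glycoprotein linked to ER calcium, was higher at all 3 times, by 0.45, 0.70, and 1.29 on the log2 scale.

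Several abundant chaperones and disulfide enzymes went down instead, whereas HSPA5, HYOU1, MANF, and P4HB were higher at 12 h. PDIA6 stood at 592, 537, and 567 CPM with DMSO, at 542, 549, and 544 CPM at 4 h, at 441, 449, and 431 CPM at 8 h, and at 308, 276, and 287 CPM at 12 h (log2 fold change -0.96, SE 0.039, adjusted p = 1.3e-23). PDIA3, which works with the lectin chaperones, stood at 909, 897, and 935 CPM with DMSO, at 784, 783, and 765 CPM at 8 h, and at 541, 524, and 520.2 CPM at 12 h (log2 fold change -0.79, SE 0.031, adjusted p = 6.17e-24). In both genes 4 h overlapped DMSO, and the 8 and 12 h samples lay below it in turn. CRELD2 (-0.61), CALR (-0.59), HSP90B1 (-0.41), DNAJB11 (-0.40), PDIA4 (-0.37), and CANX (-0.09) were also lower at 12 h. Within the 7 disulfide genes 4 were lower and P4HB (0.13) and ERO1B (0.60) were higher, and ERO1A, at 90.9, 95.5, and 88.5 CPM at 12 h, was not called (-0.06, adjusted p = 0.272).

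Summed over all members, the 12 h samples lay within the range of the DMSO samples. Summed CPM of the 34 genes lay between 14868 and 15688 with DMSO, between 16953 and 17376 at 4 h, between 15330 and 15392 at 8 h, and between 15258 and 15630 at 12 h. Over the same times the 10 degradation genes went from between 668 and 684 to between 1753 and 1908 CPM at 12 h, and the 4 sensors from between 209.7 and 221 to between 624 and 726. The 7 disulfide genes went from between 3197 and 3324 to between 2518 and 2652 CPM, and both lectins from between 4736 and 5025 to between 4134 and 4241. With Dox the sum of all members, scaled by TMM, fell from between 18947 and 19228 to between 12446 and 13021 CPM. The size of that fall depends on the scaling.

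Members that shared an element went different ways at 12 h. At 4 h none of them was called lower, but among all 34 members only 3 were. Of the 6 members with ERSE, 2 were higher and 4 lower at 12 h, between -0.61 (CRELD2) and 0.60 (ERO1B), and at 4 h 4 were higher while CRELD2 (0.06) and ERO1B (0.17) were not called. Of the 3 with ERSE-II, HERPUD1 (3.26) and HYOU1 (0.39) were higher and SDF2L1 (-0.37) was lower at 12 h. All 3 were higher at 4 h, and at 8 h 2 were higher and 1 lower. Of the ERSE members 1 was higher (CANX) and 1 lower (HSPA5) at 8 h. With library size only the call on CANX was lost, and HSP90B1 (-0.113) and CALR (-0.122) were called lower. Over all 34 members 21 were higher and 3 lower at 4 h, 14 and 12 at 8 h, and 23 and 10 at 12 h. Among all genes these shares were 26.4% and 24.7% at 4 h, 35.9% and 37.0% at 8 h, and 39.4% and 39.4% at 12 h. With Dox 4 ERSE members were lower and 2 higher, and all 3 with ERSE-II were lower (35.3% of all genes lower, 35.1% higher). CRELD2 and HERPUD1 lost that call with library size only.

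The last comparison asks whether PBITE-1 at 12 h and Dox had different effects, as an interaction over all 18 samples. It was higher for 27 members and lower for 5 (33.3% and 35.1% of all genes), where higher means a more positive response to PBITE-1. Among the members 13 (38.2%) were higher at 12 h and lower with Dox, beside 7.86% of all genes, and for all 13 the difference itself was called: CREB3L2, DERL2, DNAJC3, EDEM1, EIF2AK3, HERPUD1, HSPA5, HYOU1, MANF, P4HB, SEC24D, SEC61B, and SEL1L. DERL2, DNAJC3, EDEM1, HERPUD1, SEC24D, and SEL1L are among those whose fall with Dox was lost with library size only. The difference was called for all 13 with each of the 4 scalings, and with library size only it was higher for 23 members and lower for 6. For HSPA5 the difference was 1.10 (SE 0.039, adjusted p = 1.48e-27), for MANF 1.53 (SE 0.062), and for EIF2AK3 2.45 (SE 0.099).

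Another 9 members (26.5%, beside 22.4% of all genes) were lower in both comparisons (CANX, CRELD2, DERL3, DNAJB11, HSP90B1, PDIA3, PDIA4, PDIA6, and SDF2L1, of which PDIA3 turned higher and CRELD2 lost its call with Dox with library size only), and 6 (17.6%, beside 18.5% of all genes) were higher in both (DNAJB9, EDEM2, ERN1, ERO1B, OS9, and WFS1). Sharing a direction did not mean sharing a size. HSP90B1 fell by 0.98 with Dox and by 0.41 at 12 h, a difference of 0.52 (SE 0.037, adjusted p = 1.24e-16), and PDIA3 fell more at 12 h than with Dox (difference -0.71, SE 0.039). DNAJB11 gave -0.44 and -0.40, with a difference of -0.004 (95% interval -0.18 to 0.17). CALR was the member that rose with Dox and fell at 12 h, a pattern of 8.69% of all genes. DNAJB9, ERN1, and WFS1 were higher in all 4 comparisons with control, as were 9.71% of all genes.

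**Figure D3:**
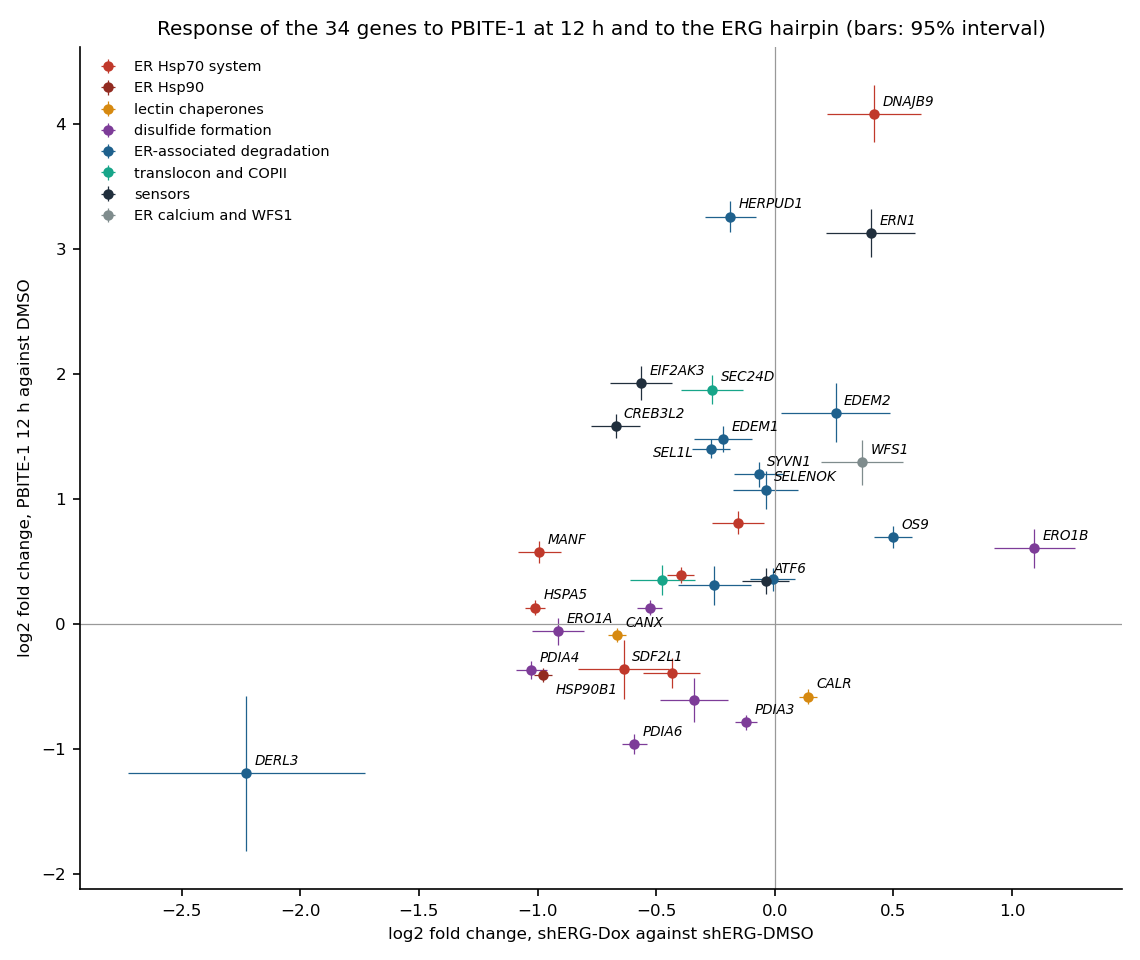
Log2 fold change at 12 h of PBITE-1 against DMSO (vertical) and with Dox against DMSO in VCaP-shERG cells (horizontal) for the 34 genes, coloured by role, with 95% intervals from limma. Degradation genes other than DERL3 and sensors lie above the horizontal line, between -0.67 and 0.50 across, and DERL3 lies alone at the lower left.

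Other ER genes were taken from a separate list of 68, of which 66 were tested. After Dox 41 were lower and 13 higher (62.1% and 19.7%, beside 35.3% and 35.1% of all genes), with a median of -0.32, but 24 were lower and 25 higher with library size only and 35 and 22 with upper-quartile scaling. With TMM 11 of 12 translocation genes and 9 of 10 N-glycosylation genes were lower. At 12 h of PBITE-1, 30 were higher and 28 lower (45.5% and 42.4%, near the 39.4% and 39.4% of all genes), with a median of -0.01. The interaction of PBITE-1 at 12 h and Dox leaned upwards here as in the members. It was higher for 37 and lower for 15 (56.1% and 22.7%, beside 33.3% and 35.1% of all genes), but for 23 and 24 with library size only. HSPA13, an ER-associated Hsp70-like protein, stood at 82.7, 74.3, and 83.6 CPM with DMSO and at 384, 417, and 388 CPM at 12 h (log2 fold change 2.31, SE 0.047, adjusted p = 4.31e-33). SELENOS (1.53), a VCP-binding selenoprotein of the degradation pathway, and DNAJC1 (1.46), a J-domain protein of the ER membrane, came next. CREB3L1 (-2.295) and CREB3L4 (-1.78), relatives of CREB3L2, and the ubiquitin-conjugating enzyme UBE2G2 (-1.70) had the lowest values. XBP1 went from 182, 165, and 175 to 277, 297, and 286 CPM at 8 h and 246, 283, and 268 CPM at 12 h (log2 fold change 0.61, SE 0.046, adjusted p = 3.23e-15), with all treated samples above DMSO, and stood at 0.04 (95% interval -0.03 to 0.12) with Dox.

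ATF4 and its known targets, 17 genes kept apart from the members, had larger medians at each time of PBITE-1. Of these 15 were higher at 4 h and 16 at both 8 and 12 h (26.4%, 35.9%, and 39.4% of all genes), with medians of 1.86, 2.64, and 2.73. VLDLR was the gene of the list called lower, with log2 fold changes of -1.719, -1.909, and -1.785 at 4, 8, and 12 h. It was also lower with Dox (-1.069). With Dox 10 were lower and 4 higher (58.8% and 23.5%, beside 35.3% and 35.1% of all genes). That count was 8 lower and 5 higher with library size only, and 8 and 4 with upper-quartile scaling. The interaction was higher for 16 genes of the list and lower for 1 (33.3% and 35.1% of all genes). ATF4 stood at 308, 309.8, and 289 CPM with DMSO, at 669, 649.9, and 625 CPM at 4 h, and at 935, 963, and 949 CPM at 12 h (log2 fold change 1.65, SE 0.035). DDIT3, which encodes CHOP, stood at 13.5, 9.40, and 9.82 CPM with DMSO and at 162, 138, and 138 CPM at 4 h, and its 12 h samples were at 159, 202, and 189.7 CPM. ATF3 had the largest change of the list at 12 h, from between 0.400 and 1.04 CPM in the DMSO samples to 300.4, 421, and 352 CPM. In the direct comparison of 12 with 8 h the median log2 difference was 0.12 over the list and 0.48 over the members.

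**Figure D4:**
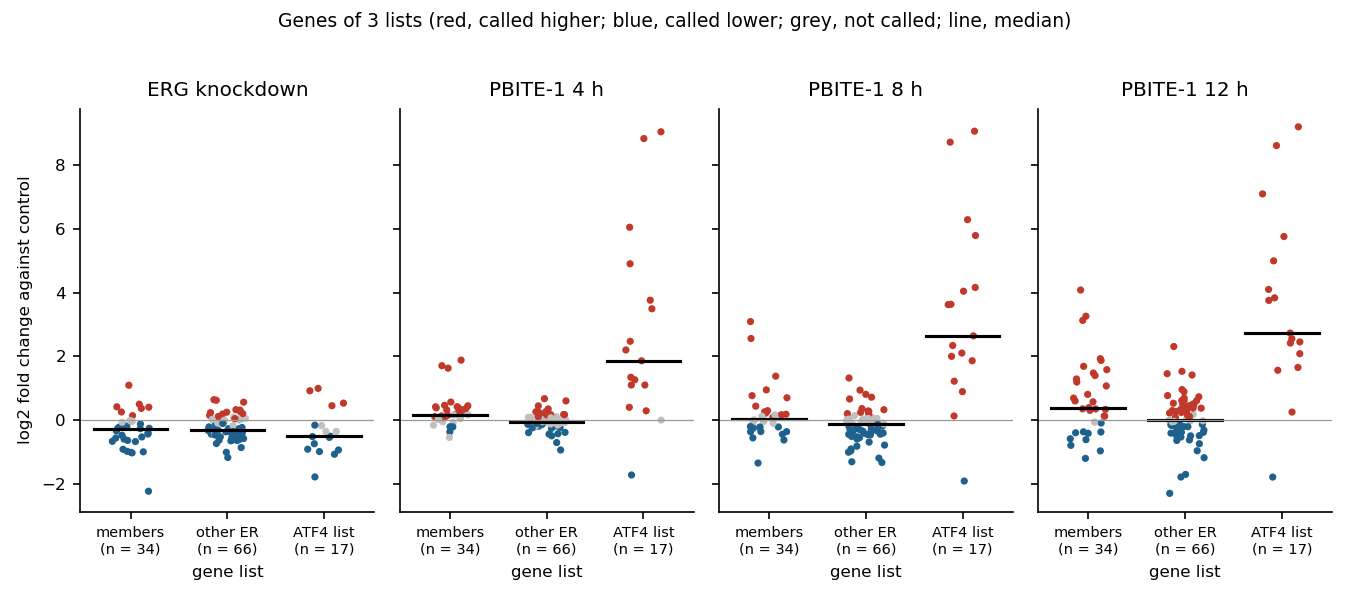
Log2 fold change against control (vertical) of the 34 members, the 66 other ER genes, and the 17 genes of the ATF4 list in 4 comparisons. Red points were called higher, blue lower, and grey not called, and lines give medians, which for the members are -0.27, 0.17, 0.05, and 0.37.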

How the data were processed

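The deposited table holds whole-number counts per Ensembl gene for 18 samples. For these counts the authors' methods name Kallisto v0.46.1, while the submitters' processing notes name STAR, featureCounts, and hg38. Annotation and use of strand are not given in the sources used here, and the counts carry no molecular identifiers. Of 22034 genes, 22011 matched a symbol. Positions come from GENCODE 29 (GRCh38), and promoter windows from RefSeq.

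Genes kept by filterByExpr (14164, at least 99.9% of each sample's counts) went through TMM scaling, voom, and limma's moderated linear model (R 4.3.3, edgeR 4.0.16, limma 3.58.1), with Benjamini-Hochberg adjustment over all of them. Calls had an adjusted p below 0.05. Separate fits were made for 6 VCaP-shERG and 12 parental samples, and 1 fit of all 18 gave the interaction. The procedure was tested on simulated data. Replicates differed by more than sampling noise (chi-square per degree of freedom 1.70 to 5.04). No genome sequence or protein table was used.

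The members and lists were chosen with earlier results of these data known. Values per sample are given for HSPA5, HERPUD1, DNAJB9, SDF2L1, DERL3, ERN1, ATF6, EIF2AK3, and the 3 highest and 3 lowest called members in each comparison with control. Of the other ER genes, XBP1 and the 3 highest and 3 lowest at 12 h are named, and of the ATF4 list ATF4, DDIT3, and the highest. HSP90B1, SEL1L, CREB3L2, and SEC24D were added after their values were seen, and so was VLDLR of the ATF4 list. As alternatives, calls were remade with DESeq2 1.42.0, edgeR's quasi-likelihood test, upper-quartile and RLE scaling, library size only, no filter, at least 10 counts in every sample, all 18 samples in 1 fit, only the groups compared, a replicate block, quality weights, an adjusted p below 0.01, and leaving out each sample.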

Additional observations from a re-analysis of the deposited data

Results flagged for a closer look

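The response to PBITE-1 differed between times by the direct tests in limma-voom. From 4 to 8 h 7 members were higher and 17 lower (20.6% and 50.0%, beside 26.7% and 26.3% of all genes). From 8 to 12 h 23 were higher and 7 lower (67.6% and 20.6%, beside 27.8% and 32.5%). The 66 other ER genes tested moved likewise, with 9 higher and 31 lower, then 37 higher and 17 lower. The genes below are those called on opposite sides of DMSO at neighbouring times, and the times share the DMSO samples.

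From 4 to 8 h HSPA5 changed by -0.68, SDF2L1 by -0.74, CREB3L2 by -0.64, and PDIA4 by -0.35 on the log2 scale, each from above to below the control. From 8 to 12 h CREB3L2 changed by 1.835, SEC61B by 0.97, DERL2 by 0.86, DERL1 by 0.55, and HSPA5 by 0.49, each from below to above. CANX changed by -0.18 over that step, from above to below, but its call above DMSO at 8 h was lost with library size only (0.026, adjusted p = 0.345).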

How the results depend on the processing

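Scaling was the choice that changed counts. With library size only, 12 members were higher and 15 lower with Dox (7 and 23 with TMM), 5 were lower at 4 h (3 with TMM), and HERPUD1 with Dox turned from -0.189 to 0.072 (adjusted p = 0.212). The median of all genes shifted with that scaling from 0.018 to 0.279, and the cause was not tested. The difference between PBITE-1 at 12 h and Dox gave 27 higher and 5 lower with TMM, and 23 and 6 with library size only. HERPUD1 with Dox was at -0.03 (adjusted p = 0.652) with upper-quartile scaling, and ATF6 at 8 h was at 0.10 (adjusted p = 0.0706) with library size only. Over 39 values of named members, 876 recomputed values kept direction and side of the threshold, 2 lost the call, and 1 reversed. These 39 were calls past 2-fold or on HSPA5, HERPUD1, DNAJB9, SDF2L1, DERL3, ERN1, ATF6, and EIF2AK3, so weaker calls were mostly left out. Among the calls left out, PDIA3 with Dox turned higher with library size only (0.14). With that scaling CRELD2, DERL2, DNAJC3, EDEM1, SEC24D, and SEL1L with Dox lost the call, as did CALR and P4HB at 4 h and CANX at 8 h. Lower calls gained with that scaling were PDIA6 and DERL2 at 4 h, and HSP90B1, CALR, and P4HB at 8 h. Leaving out each sample gave 6 to 7 higher and 22 to 23 lower with Dox, 19 to 21 and 3 to 4 at 4 h, 14 to 15 and 12 to 14 at 8 h, and 23 and 10 at 12 h, and the difference gave 26 to 27 and 4 to 5. Samples of the same replicate number did not deviate together (correlations 0.008 to 0.021 in the knockdown, -0.023 to 0.041 in parental cells), and with the replicate block 23 members were lower and 7 higher with Dox, and 23 higher and 10 lower at 12 h. DERL3, with 7 to 120 counts, is where depth limits precision.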
